A study of Mus musculus with 2 samples.

Results

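The 10 genes described here are p53 and growth-arrest targets, chosen by name for their known part in the response to DNA damage and other stress, and all 10 were found among the 44713 genes of the deposited table. They are Cdkn1a, Mdm2, Btg2, Gadd45a, Gadd45b, Gadd45g, Ccng1, Sesn1, Plk2 and Plk3. Gene counts came from RNA sequencing of pancreatic islets in 2 libraries. The db/db library is labelled Lepr-/-, a loss of the leptin receptor that makes mice obese and diabetic, and the db/m library, labelled wild type, is its control. Both are on the C57BL/6 background, and neither the age and sex of the mice nor the number of animals behind a library is given in the labels. Although the series is described as triplicate, the data analysed here are 1 library for each group. Replicate error is therefore unknown, p-values are not given, and every interval covers counting error only. Each member is known by 1 ratio of db/db over db/m, so genes with a like pattern across samples were not sought.

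The transcription factor p53 is stabilised when DNA is damaged or cells are stressed, and it then switches on genes that stop the cell cycle, repair DNA, restrain growth signalling or kill the cell. Mdm2, itself a p53 target, marks p53 for destruction and so closes a feedback loop. Several of the genes also answer to other signals, and Btg2, the Gadd45 genes and the polo-like kinase genes Plk2 and Plk3 are known as early response genes that cells induce quickly after growth factors, cytokines or stress, also without p53.

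The promoters of 4 members are shown first, 2 from members that were higher in db/db and whose windows hold a site for p53, and 2 from members that were lower in db/db and whose windows hold a site used by early response genes. They were picked by site and direction together, so the match of site with direction among them is not a result. They are RefSeq sequences of build GRCm38.p6, from 250 bases before to 50 bases after the start of a transcript. In Cdkn1a (chr17:29090729-29091028, plus strand) and Ccng1 (chr11:40755237-40755536, minus strand) the capitals mark a 20-base p53 site, defined as 2 copies of the p53 consensus end to end with at most 1 mismatch and with the core C and G of each copy intact. In Btg2 (chr1:134079106-134079405, minus strand) and Plk2 (chr13:110394794-110395093, plus strand) they mark the cyclic AMP response element (CRE) TGACGTCA, which reads the same on both strands.
Cdkn1a: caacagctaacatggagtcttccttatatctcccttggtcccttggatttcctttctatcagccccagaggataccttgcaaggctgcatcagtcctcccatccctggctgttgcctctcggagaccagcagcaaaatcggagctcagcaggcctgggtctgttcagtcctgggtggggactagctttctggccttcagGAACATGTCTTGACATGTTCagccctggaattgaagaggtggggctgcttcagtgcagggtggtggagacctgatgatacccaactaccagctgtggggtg
Ccng1: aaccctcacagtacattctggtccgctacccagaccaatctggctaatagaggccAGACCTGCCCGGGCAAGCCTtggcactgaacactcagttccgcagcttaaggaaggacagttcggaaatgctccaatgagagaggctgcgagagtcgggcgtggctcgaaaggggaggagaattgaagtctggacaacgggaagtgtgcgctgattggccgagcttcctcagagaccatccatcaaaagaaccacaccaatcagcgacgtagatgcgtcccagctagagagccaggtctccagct
Btg2: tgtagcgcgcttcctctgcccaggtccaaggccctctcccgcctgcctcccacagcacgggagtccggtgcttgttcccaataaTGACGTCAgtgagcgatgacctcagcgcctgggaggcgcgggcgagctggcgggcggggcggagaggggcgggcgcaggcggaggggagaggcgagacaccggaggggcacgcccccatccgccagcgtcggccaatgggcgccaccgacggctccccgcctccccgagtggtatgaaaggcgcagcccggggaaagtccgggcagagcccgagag
Plk2: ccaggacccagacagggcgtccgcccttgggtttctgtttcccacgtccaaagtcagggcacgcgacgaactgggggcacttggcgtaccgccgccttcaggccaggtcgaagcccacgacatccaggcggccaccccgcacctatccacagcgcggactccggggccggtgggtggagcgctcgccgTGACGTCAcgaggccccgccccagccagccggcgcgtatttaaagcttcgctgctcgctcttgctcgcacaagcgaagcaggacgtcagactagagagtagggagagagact

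All 10 members matched a promoter by symbol, with 12 promoters in all, since Cdkn1a and Sesn1 have 2 each. The 20-base p53 site began 51 bases before the start of the upstream Cdkn1a transcript and 195 bases before the start of the Ccng1 transcript. It was found in 22 of the 32851 promoters of the table (0.067%) and in no other promoter of the members. The CRE began 166 bases before the start in Btg2 and 62 bases before the start in Plk2, and 1.79% of all promoters held it. Sesn1 and Mdm2, which were higher in db/db, had no 20-base p53 site, and Gadd45b, which was lower, had no CRE. A single exact copy of the p53 consensus, found in 8.36% of all promoters, also lay in promoters of Mdm2, Sesn1 and Gadd45a. The sites describe letters in these windows, and p53 sites outside them, as in the first intron of a gene, were not searched. Only 5 of the 22 genes with the p53 site had enough counts to be compared (below). Besides Ccng1 and Cdkn1a these were Mthfd1 at a ratio of 0.845 (95% counting interval 0.703 to 1.02), Rps27l at 0.835 (0.752 to 0.926) and Sptbn4 at 0.280 (0.127 to 0.573), so the genes with this site had no common direction. Sptbn4, at 0.568 CPM in db/db, had enough counts only through db/m. Of 284 compared genes with the CRE, 2.46% were at least 2-fold lower, against 3.44% of the 7451 compared genes with any promoter in the table, and their median log2 ratio was 0.04 against 0.03.

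The db/db library held 18233695 counts and the db/m library 16271129. Levels are given as CPM, the count relative to a library size scaled by the trimmed mean of M values (TMM), so that 1 count was worth 0.0516 CPM in db/db and 0.0653 CPM in db/m. A gene was compared when its mean unscaled CPM was at least 1, and it was called higher or lower when its ratio was at least 2-fold and the 95% interval excluded 1. Lepr had 3 counts in db/db and 4 in db/m, too few to check the label. Exocrine RNA dominated what the labels give as islet cells, with 16 acinar markers at 53.1% of all counts in db/db and 54.8% in db/m. The 10 beta cell markers summed to 1558 CPM in each library, most of it Ins2. Of these 10, however, 6 were called lower, against 4.04% of all compared genes. Ins1, 1 of the 6, was not called when scaled by total counts (1.87-fold lower). The same held with acinar and islet hormone genes left out of the total (1.94-fold lower). The sum of the 8 alpha, delta and PP cell markers was 4.55-fold higher in db/db (4.26 to 4.87). The 9 duct markers summed to 281 CPM in db/db and 408 CPM in db/m, and the immune, endothelial and fibroblast markers to between 7.23 and 15.6 CPM per list in either library. In bulk RNA, fewer cells of a type and less RNA per cell cannot be told apart, and the cell type behind a member's counts was not resolved.

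Btg2 was the only member past the 2-fold limit, and it was 5.51-fold lower in the db/db library (95% interval 5.01 to 6.08). Cdkn1a, Ccng1, Mdm2 and Sesn1 were 1.35-fold to 1.66-fold higher, with intervals above 1 but within the limit. Gadd45b and Plk2 were lower, by 1.76-fold and 1.40-fold, and Gadd45g and Plk3 had intervals that include 1. Gadd45a had too few counts to be compared. Of the 9 compared members, 0 were called higher, against 3.83% of the 10300 compared genes, and 1 was called lower, against 4.04% (7.87% for both directions). Scaling by total counts added 0.18 to every log2 ratio, and 564 genes were then higher and 277 lower, against 395 and 416 with TMM. By the interval alone, 4 of the 9 lay above 1, against 20.7% of all compared genes, and 3 lay below 1, against 18.2%. The median log2 ratio of the 9 was -0.03, beside 0.02 for all compared genes, so the members had no common direction.

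**Figure D1:**
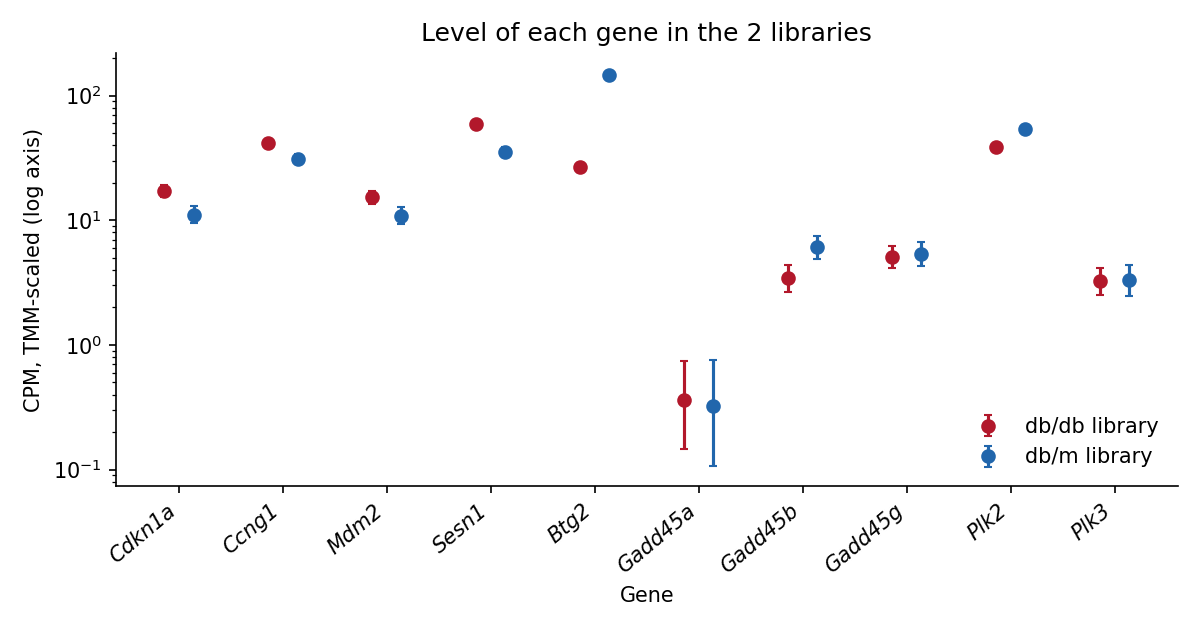
Level of each gene in CPM on a log axis, with the db/db library in red on the left and the db/m library in blue on the right, and bars for the 95% exact Poisson interval of the count. Btg2 stands at 26.5 CPM in db/db and 146 CPM in db/m, and the heights of different genes are not comparable because CPM is not divided by transcript length.

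Cdkn1a encodes p21, an inhibitor of cyclin-dependent kinases that holds cells before DNA replication (chromosome 17, 29090979 to 29100722 in GRCm38). It had 333 counts in db/db and 170 in db/m, or 17.2 and 11.1 CPM in db/db and db/m. The db/db level was the higher one, by 1.55-fold (1.28 to 1.87), and 91.0% of compared genes had a lower ratio. Within each library Cdkn1a was also set against Cdkn1b, which encodes the related inhibitor p27 and had 253 counts in db/db and 240 in db/m. There were 1.32 counts of Cdkn1a per count of Cdkn1b in db/db and 0.708 in db/m. The odds ratio of these counts, which no scaling of the libraries can alter, was 1.86 (1.43 to 2.42), so the balance of the pair differed beyond counting error.

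Ccng1 encodes cyclin G1, which recruits a phosphatase to Mdm2 (chromosome 11, 40748552 to 40755309). It had 807 counts, 41.7 CPM, in db/db and 474 counts, 31.0 CPM, in db/m. The ratio was 1.35 (1.20 to 1.51), above equality by less than the 2-fold limit. Its relative Ccng2, which is induced when growth factor signals fall, had 37 counts in db/db and 10 in db/m and was 2.92-fold higher (1.43 to 6.59). At 0.653 CPM in db/m, Ccng2 reached the level for comparison only through db/db. The odds ratio of Ccng1 over Ccng2 was 0.460 (0.202 to 0.955), so Ccng2 differed more than Ccng1.

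Mdm2, the ubiquitin ligase of p53 (chromosome 10, 117688875 to 117710758), had 295 counts, 15.2 CPM, in db/db and 167 counts, 10.9 CPM, in db/m. Its ratio was 1.40 (1.15 to 1.70). Mdm4, which binds p53 and blocks its activity but has little ligase activity of its own, went the other way, with 549 counts in db/db and 564 in db/m and a ratio of 0.769 (0.683 to 0.867). There were 0.537 counts of Mdm2 per count of Mdm4 in db/db and 0.296 in db/m, an odds ratio of 1.81 (1.44 to 2.29). Cpm, which ends within 2000 bases of the Mdm2 end on the other strand, had 237 counts in db/db and 91 in db/m. Whether counting used the strand is not stated in the labels, so reads running past either end could be assigned to the wrong gene.

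Sesn1 encodes sestrin 1, which restrains the growth kinase mTORC1 through the GATOR complexes (chromosome 10, 41810574 to 41908436). It had 1136 counts, 58.6 CPM, in db/db and 541 counts, 35.3 CPM, in db/m. The ratio of 1.66 (1.497 to 1.84) was the highest among the compared members, and 93.1% of compared genes had a lower ratio. Sesn2, which the integrated stress response also induces, had 130 counts in db/db and 60 in db/m, a ratio of 1.71 (1.25 to 2.37). Sesn3 had 86 and 59 counts in db/db and db/m, a ratio of 1.15 (0.818 to 1.63). Sesn1 made up 84.0% of the sestrin counts in db/db (95% exact binomial interval 82.0% to 85.9%) and 82.0% in db/m (78.8% to 84.8%). The odds ratio of Sesn1 over Sesn2 was 0.969 (0.689 to 1.35), so a difference between the 2 sestrins was not detectable.

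Neighbours in the order Ccng1, Mdm2, Cdkn1a and Sesn1 could not be told apart by counting error. The odds ratio was 1.04 for Mdm2 over Ccng1 (0.827 to 1.30), 1.11 for Cdkn1a over Mdm2 (0.843 to 1.46) and 1.07 for Sesn1 over Cdkn1a (0.862 to 1.33). The ends of this order did differ beyond counting error, with an odds ratio of 1.23 for Sesn1 over Ccng1 (1.055 to 1.44), a pair set side by side after the values were seen. The 4 genes' summed counts were 2571 in db/db and 1352 in db/m, a ratio of 1.503 (1.41 to 1.61) for a sum put together after the values were seen.

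**Figure D2:**
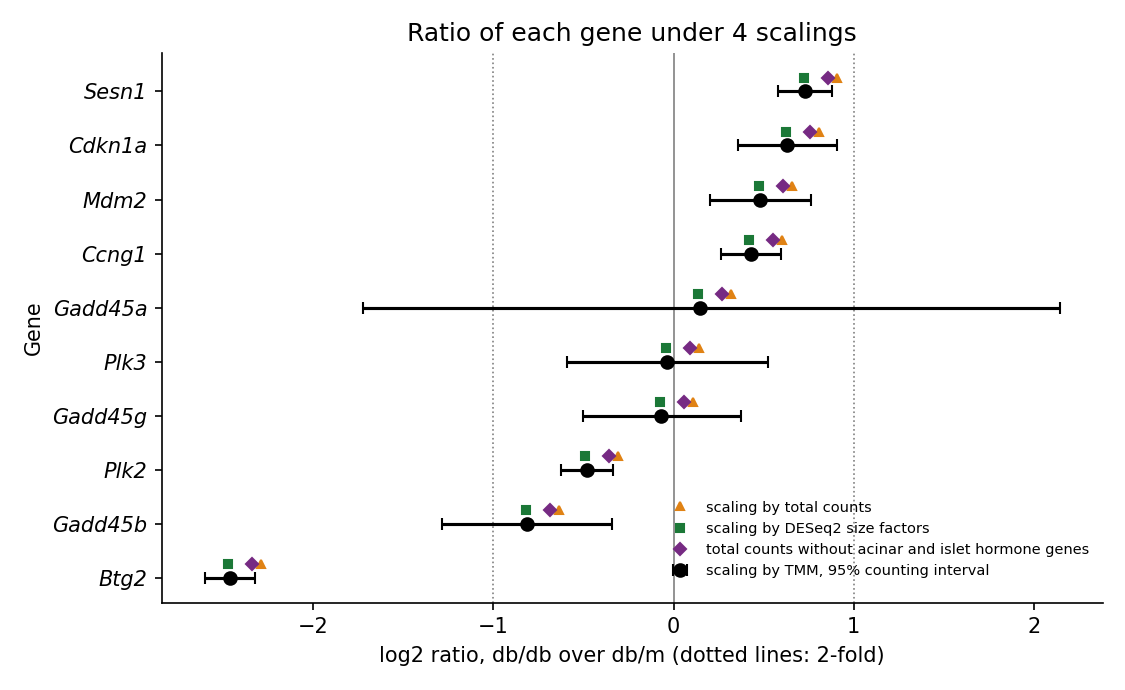
The log2 ratio of db/db over db/m for each gene, ordered from the highest at the top, with the 95% counting interval under TMM scaling and the ratio under 3 other scalings as coloured symbols. Btg2 lies beyond the dotted 2-fold line under all 4 scalings, Sesn1, Cdkn1a, Mdm2 and Ccng1 lie to the right of equality under all 4, and Plk3 and Gadd45g change side with the scaling.

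Btg2 encodes an anti-proliferative protein that recruits the machinery removing poly(A) tails from messenger RNA (chromosome 1, 134074865 to 134079155). It had 514 counts in db/db and 2240 in db/m, or 26.5 and 146 CPM in db/db and db/m. The db/m library thus held most of the Btg2 counts despite its smaller total, and only 46 of 10300 compared genes (0.447%) had a lower ratio. Btg2 made up 12.6% of the counts of the 10 members in db/db and 48.2% in db/m. Without it the other 9 members summed to 3556 counts in db/db and 2410 in db/m, a ratio of 1.17 (1.11 to 1.23), whereas all 10 together gave 0.692 (0.663 to 0.722). Btg2 was left out of the smaller sum after the values were seen. Gadd45b, Plk2, Gadd45g and Plk3, which are part of that sum, had ratios below 1.

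The relatives of Btg2 had smaller differences. Btg1, its closest relative, had 393 counts in db/db and 558 in db/m and was 1.80-fold lower (1.58 to 2.05), with an odds ratio of Btg2 over Btg1 of 0.326 (0.277 to 0.384). Btg3 had a ratio of 1.16 (0.773 to 1.75). The more distant Tob1 and Tob2, which also act on poly(A) tails, had ratios of 1.30 (1.23 to 1.38) and 1.41 (1.07 to 1.88). Btg2 made up 52.99% of the counts of Btg1, Btg2 and Btg3 in db/db (49.8% to 56.2%) and 78.8% in db/m (77.3% to 80.3%).

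Early response genes outside the members were also lower in db/db. Of 23 compared ones, 18 were called lower, 0 were called higher, and all 23 had ratios below 1, with a median log2 ratio of -2.11 beside -2.46 for Btg2. Among all compared genes 4.04% were called lower and 3.83% higher. With total counts 16 early response genes were called lower, beside 277 genes in all. With the total left without acinar and islet hormone genes there were 17, beside 318 in all. The early response genes summed to 236 CPM in db/db and 1109 CPM in db/m. The largest differences were those of Atf3, with 39 counts in db/db and 723 in db/m, and Fosb, with 38 in db/db and 578 in db/m. What part handling or any other influence on these genes had in the value of Btg2 was not tested.

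The Gadd45 genes encode small acidic proteins that activate the MAP3K4 branch of p38 and JNK signalling and bind p21 and PCNA. Gadd45a, the family member best known as a p53 target (chromosome 6, 67035096 to 67037407), had 7 counts in db/db and 5 in db/m. At 0.361 and 0.327 CPM in db/db and db/m it stayed below the level needed for a comparison, and its ratio of 1.11 had an interval of 0.302 to 4.42. At this depth a difference was not detectable. The long non-coding RNA E230016M11Rik overlaps it on the other strand and had 13 counts in db/db and 2 in db/m, and without the strand of counting their reads cannot be told apart.

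Gadd45b, which NF-kB and TGF-beta signals also induce (chromosome 10, 80930091 to 80932204), had 67 counts, 3.46 CPM, in db/db and 93 counts, 6.07 CPM, in db/m. It was 1.76-fold lower (1.27 to 2.44), within the 2-fold limit. Gadd45g (chromosome 13, 51846675 to 51848475) had 99 counts, 5.11 CPM, in db/db and 82 counts, 5.36 CPM, in db/m, a ratio of 0.954 (0.705 to 1.29). There were 1.48 counts of Gadd45g per count of Gadd45b in db/db and 0.882 in db/m, an odds ratio of 1.67 (1.07 to 2.64). The pairs with Gadd45a had odds ratios of 0.517 for Gadd45b (0.124 to 1.98) and 0.863 for Gadd45g (0.208 to 3.29), which the few Gadd45a counts leave wide.

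Plk2 and Plk3 encode polo-like kinases that act in stress checkpoints, unlike Plk1, which drives mitosis. Plk2 (chromosome 13, 110395044 to 110400844) had 749 counts, 38.7 CPM, in db/db and 827 counts, 54.0 CPM, in db/m, and was 1.40-fold lower (1.26 to 1.54). Plk3 (chromosome 4, 117128655 to 117133963) had 63 counts, 3.25 CPM, in db/db and 51 counts, 3.33 CPM, in db/m, a ratio of 0.976 (0.664 to 1.44). The odds ratio of Plk2 over Plk3 was 0.733 (0.490 to 1.09), so a difference between the 2 kinases was not detectable at this depth. Tctex1d4 overlaps the end of Plk3 on the other strand and had 0 counts in both libraries. Plk4, the kinase of centriole duplication, was 2.17-fold higher (1.28 to 3.83) with 55 counts in db/db and 20 in db/m, and Plk1 had 1 count in db/db and 8 in db/m.

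In the order of ratios, from Btg2 through Gadd45b, Plk2, Gadd45g, Plk3, Ccng1, Mdm2 and Cdkn1a to Sesn1, only the first step exceeded counting error among 8 pairs of neighbours. That was Gadd45b over Btg2, with an odds ratio of 3.14 (2.22 to 4.41). The step across equality, Ccng1 over Plk3, had 1.38 (0.917 to 2.06). Steps between neighbours are the smallest in the order. Of all 36 pairs of compared members, 25 had intervals that exclude 1, among them every pair with Btg2 and Ccng1 over Plk2 at 1.88 (1.61 to 2.19). Each pair was set as higher over lower after the values were seen. The share for pairs of all compared genes was not computed, so the 25 pairs are not a result about the members.

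**Figure D3:**
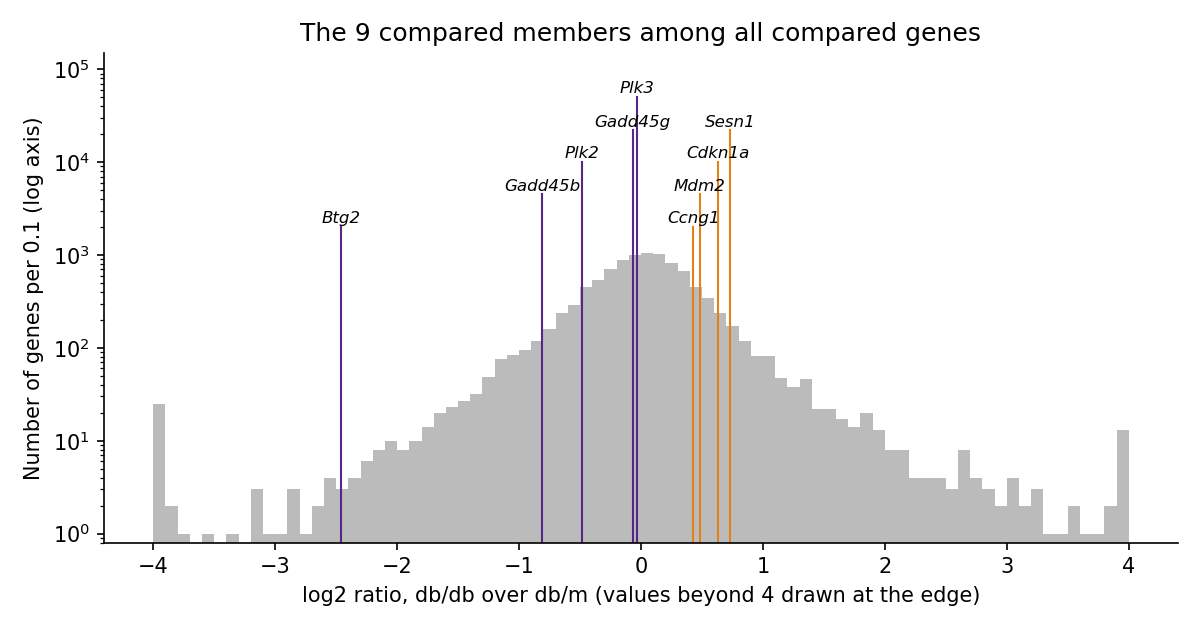
Histogram of the log2 ratio of db/db over db/m for 10300 compared genes, with the number of genes per bin of 0.1 on a log axis, and the 9 compared members as vertical lines in purple (below 0) or orange (above 0). Btg2 stands in the lower tail with 0.447% of genes below it, and the other 8 stand within the body of the distribution.

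**Figure D4:**
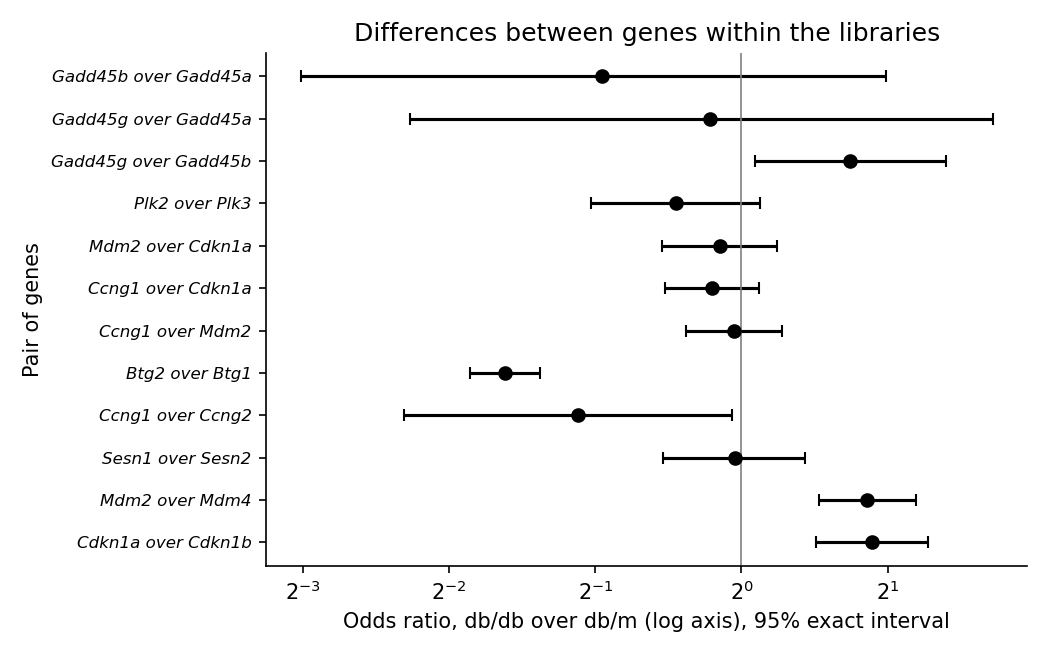
Odds ratio of the counts of 12 pairs of genes in db/db over db/m, on a log axis with 95% exact intervals. Of the pairs, Btg2 over Btg1 and Ccng1 over Ccng2 lie below 1, Gadd45g over Gadd45b, Mdm2 over Mdm4 and Cdkn1a over Cdkn1b lie above 1, and the other 7 have intervals that include 1.

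Other targets of p53 lay on both sides of equality, and the numbers on each side moved with the scaling, as they did for all compared genes. Of 44 listed genes 30 were compared, 0 were called higher and 3 were called lower, namely Ddit4, an inhibitor of mTORC1 (2.39-fold lower, 1.81 to 3.17), Bbc3, which encodes the cell death protein Puma (2.09-fold lower, 1.29 to 3.44), and Apaf1, the core of the apoptosome (2.13-fold lower, 1.43 to 3.22). The shares over all compared genes were 3.83% higher and 4.04% lower. With total counts, or with the total left without acinar and islet hormone genes, Bbc3 was 1.855-fold or 1.92-fold lower and Apaf1 1.89-fold or 1.95-fold lower, so that 1 call, Ddit4, remained. By the interval alone 4 of the 30 lay above 1 (Sesn2, Cd82, Ei24 and Crip2) and 10 below. These are 13.3% above and 33.3% below, beside 20.7% and 18.2% of all compared genes, and the median log2 ratio was 0.10. With total counts 8 of the 30 lay above and 6 below, beside 35.2% and 9.85% of all compared genes. Under both scalings the list had a smaller share above 1 and a larger share below 1 than all compared genes. Its median log2 ratio nevertheless stayed 0.08 above theirs. The abundant Trp53inp1, a regulator of autophagy and cell death, had 1939 counts in db/db and 1443 in db/m and a ratio of 1.06 (0.992 to 1.14).

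Among p53 and its regulators 1 of 20 compared genes was called higher and 0 lower, with a median log2 ratio of -0.01. That is near the 3.83% higher and 4.04% lower of all compared genes. The higher gene was Chek1, a checkpoint kinase, with 42 counts in db/db and 4 in db/m, an 8.30-fold difference (3.01 to 31.9). At 0.261 CPM in db/m, Chek1 reached the level for comparison only through db/db, so it could only be called higher. Trp53 itself, the p53 gene, had 105 counts in db/db and 66 in db/m, a ratio of 1.26 (0.916 to 1.74), and a difference of its RNA was not detectable at this depth. Hipk2, a kinase that phosphorylates p53, was at 1.09 (1.03 to 1.15). Trp53cor1, the p53-induced long non-coding RNA next to Cdkn1a, had 32 counts in db/db and 10 in db/m and was 2.53-fold higher (1.21 to 5.77). It was 1 of 2 called among 7 compared long non-coding RNAs linked to p53, beside Meg3, which is expressed from the maternal allele (2.03-fold higher, 1.07 to 4.08). Trp53cor1 at 0.653 CPM and Meg3 at 0.914 CPM in db/m also reached the level for comparison only through db/db. In the same list the abundant Neat1 was 1.93-fold lower (1.81 to 2.06) and Malat1 1.28-fold lower (1.26 to 1.30).

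Relatives of the members were called higher in 2 of 10 cases and lower in 0, with a median log2 ratio of 0.30. The 2 were Plk4 and Ccng2, of which Ccng2 reached the level for comparison only through db/db. For this and the next lists, 3.83% of all compared genes were called higher and 4.04% lower. Of the other inhibitors of cyclin-dependent kinases 2 of 7 could be compared and 0 were called. Cdkn1b was at 0.833 (0.696 to 0.998), and Cdkn2a, which encodes p16 and Arf and is a common mark of senescent cells, had 0 counts in both libraries. The DNA repair gene Xrcc6 and the early response gene Sgk1 also had 0 counts in both. Whether such zeros reflect absent RNA or the way genes were counted was not tested. The cyclins, kinases and PCNA that p21 binds had 0 of 8 called, with a median of 0.09, and Ccnd2, the most abundant of them, had 1637 counts in db/db and 1481 in db/m and a ratio of 0.874 (0.814 to 0.938). Proliferation genes were scarce, with 4 of 24 compared and a summed level of 15.95 CPM in db/db and 15.87 CPM in db/m. With TMM only Tyms was called (2.29-fold lower, 1.21 to 4.52). At 0.826 CPM in db/db, Tyms reached the level for comparison only through db/m. Mcm2, part of the helicase that opens DNA for replication, had 98 counts in db/db and 39 in db/m and lay just inside the limit at 1.99 (1.36 to 2.96). It was called higher with total counts, at 2.24, and with the total left without acinar and islet hormone genes, at 2.165.

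The kinases downstream of the Gadd45 proteins had 0 of 8 called and a median of 0.09, with Mapk9, which encodes JNK2, at 1.42 (1.25 to 1.61) and Map2k7, a kinase that activates JNK, at 1.15 (0.991 to 1.33). The GATOR complexes on which sestrins act had 0 of 8 called and a median of 0.03, with Seh1l at 1.29 (1.14 to 1.47) and Sec13 at 1.13 (0.973 to 1.31). Of 22 compared DNA repair genes 2 were called higher, Brca1 (2.45-fold, 1.62 to 3.80) and Brca2 (2.45-fold, 1.46 to 4.28), and 1 lower, Xpa (2.06-fold, 1.13 to 3.87), with a median of 0.03. Xpa was not called with total counts (1.83-fold lower) or with the total left without acinar and islet hormone genes (1.89-fold lower). The medians of these lists stand beside 0.02 for all compared genes, and their calls beside 3.83% higher and 4.04% lower. Mthfd1, Sptbn4, Sesn3, Btg3, Tob2, Plk1, Plk4, Bbc3, Apaf1, Cd82, Ei24, Crip2, Chek1, Trp53, Trp53cor1, Meg3, Cdkn2a, Xrcc6, Sgk1, Tyms, Mcm2, Brca1, Brca2 and Xpa were chosen for mention once their values were known.

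**Figure D5:**
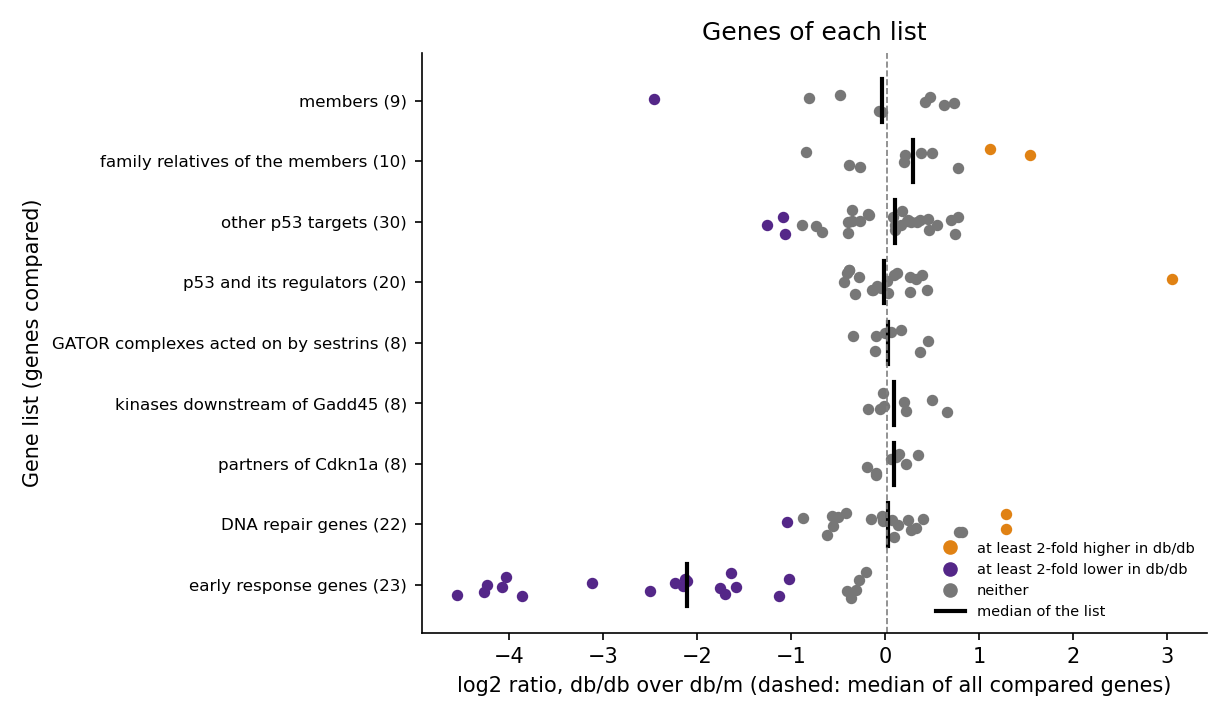
The log2 ratio of db/db over db/m for the compared genes of each list, with called genes in orange (higher in db/db) or purple (lower in db/db), the list's median as a black bar and the median of all compared genes as a dashed line. The early response genes lie to the left with a median of -2.11, and the other 8 lists drawn have medians between -0.03 and 0.30.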

How the data were processed

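Per the labels' protocols, islets were released with collagenase, purified on a density gradient and extracted directly, and ribosomal RNA was removed from total RNA. Per the submitters' processing notes, HISAT2 2.0.4 and the builds mm10 and GRCm38 were used. No source used here names the counting program, its annotation or the strand. The authors deposited raw counts, 1 whole number per gene and library, with totals of 18233695 in db/db and 16271129 in db/m.

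Counts were scaled with TMM (edgeR 4.0.16, R 4.3.3). Ratios have exact Clopper-Pearson 95% counting intervals and pairs exact conditional odds ratios (scipy 1.17.1, Python 3.11.15). These intervals cover counting error only. Copies made by PCR are counted as reads, so the intervals can be too narrow even for that error. No replicate test was possible with 1 library per group. A count of 0 was floored at up to 3 counts for a ratio. Scripts were tested on simulated data. All 308 list entries were found, by symbol or RefSeq synonym.

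The members and lists were chosen with earlier results of these data known. Named genes are the members, the pairs, overlapping genes and, per list with at least 5 CPM, up to 4 called genes and 2 abundant others. Alternative scalings used total counts, DESeq2 1.42.0 size factors, or the total left after removing acinar and islet hormone genes. Other filters, fold limits and intervals were also tried, and 0.5 was added to paired counts.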

Additional observations from a re-analysis of the deposited data

How the results depend on the processing

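With 1 library per group, nothing here separates genotype from animal or preparation, and counts under about 100 leave wide intervals. No paired analysis was possible because each group has 1 library, although both carry the same replicate number. Every log2 ratio was larger by 0.18 with total counts and by 0.12 with total counts without acinar and islet hormone genes. Under all 4 scalings Btg2 was called lower, and 4 members had intervals above 1 and 3 below 1. The shares of all compared genes did move, from 20.7% above and 18.2% below with TMM to 35.2% and 9.85% with total counts. They were 30.7% and 11.7% without acinar and islet hormone genes in the total, so the members stood out less on the upper side there. Gadd45g was at -0.07 and Plk3 at -0.03 with TMM, and at 0.11 and 0.14 with total counts, with intervals that include 0 in each case.

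With total counts the log2 ratio was 0.60 for Ccng1, 0.91 for Sesn1 and -0.31 for Plk2, and 277 genes were lower instead of 416. Other p53 targets then had 1 lower gene and a median of 0.28, with 8 intervals above 1 and 6 below, and the early response genes a median of -1.93. Without acinar and hormone genes in the total, other p53 targets had 1 lower gene and a median of 0.23, and early response genes a median of -1.98. Without a filter 745 genes were higher and 814 lower, and 1 other p53 target was higher. At 10 CPM these were 36 and 95 genes, 0 other p53 targets were lower, and the early response median was -2.24. That filter also left 0 genes called higher among p53 and its regulators and among the relatives of the members. The same held for the DNA repair genes and the long non-coding RNAs linked to p53. A 1.5-fold limit called 2 members higher (Sesn1 and Cdkn1a) and 2 lower (Btg2 and Gadd45b), beside 889 and 914 genes in all. A 4-fold limit left 78 higher and 76 lower genes, an interval wholly beyond 2-fold 99 and 137, and an interval at the Bonferroni level 138 and 213. All 12 odds ratios stayed within their intervals with 0.5 added to each count.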
